A study of Sus scrofa with 6 samples.

Results

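Chromatin regions with no called peak at embryonic day 18 (E18) of pig development and with peaks at day 21 (E21) and day 28 (E28) were taken from single-cell ATAC-seq libraries of somites and myotomes. The assay cuts accessible chromatin with a transposase, and a peak is a stretch of genome where cuts pile up. Joining peaks from the 6 libraries wherever they shared 1 bp or more gave 294825 regions. The gained regions were chosen by these peak calls alone: each holds a peak of both E21 libraries and both E28 libraries and no peak of either E18 library. There were 8826 of them. The choice fixes their E18 state and their presence at E21 and E28, so neither is a result, and no test of it is given.

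Each of the 3 stages has 1 ZZ and 1 DZ library. ZZ embryos are purebred Tibetan pigs and DZ embryos come from a Duroc by Tibetan cross. Somites were taken at E18 and E21 and myotomes at E28, so the stage and the dissected tissue change together and cannot be told apart. Each library pools the cells of 5 embryos of 1 sow. With a barcode kept if its counts in peaks lay between 2000 and 30000, the libraries held 9286 to 11243 barcodes and 89816504 to 133037579 counts. Both E18 libraries were deeper and had more peaks (217138 and 199846) than the later 4 (131975 to 188857). Any pair of libraries shared 113 to 157 barcode sequences (1.22% to 1.66% of the smaller library). Counts were deposited for called peaks, so the E18 level of a gained region is not known, and no fold change against E18 is given.

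Somites are the segments of mesoderm beside the neural tube. Their sclerotome gives rise to the cartilage and bone of the vertebral column, and their dermomyotome feeds the myotome, where MYF5, MYOD1 and MYOG drive muscle differentiation. Accessible sites far from genes often act as enhancers, and they differ more between cell types and stages than promoters do. MYOD1 and MYOG bind E-boxes with the core CAGCTG, TWIST1 of the mesenchyme binds E-boxes with the core CATATG, and MEF2 proteins work beside the myogenic factors on muscle genes.

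To show what such elements look like, 300 bp at the centre of 7 gained regions are printed here, in RefSeq's Sscrofa11.1 sequence, plus strand. They are the introns or intergenic regions with the highest level near a gene of 6 lists, and, among called regions whose covered lengths lay within 1.5 times in the 4 libraries, the largest rise from E21 to E28 outside exons. Capitals mark matches on either strand to the MYOD and MYOG E-box (CAGCTG), the TWIST1 E-box (CATATG), AP-1 (TGANTCA), the NFI site (TTGGCA) or the MEF2 consensus. They are, in order, an intron of SOX6 (chr2:42581308-42581607), upstream of ACTC1 (chr1:136273828-136274127), an intron of COL9A1 (chr1:50477911-50478210), upstream of DCN (chr5:91620439-91620738), an intron of WWTR1 (chr13:89851878-89852177), upstream of BMP2 (chr17:15732306-15732605) and upstream of DIRC1 (chr15:93426209-93426508).
SOX6: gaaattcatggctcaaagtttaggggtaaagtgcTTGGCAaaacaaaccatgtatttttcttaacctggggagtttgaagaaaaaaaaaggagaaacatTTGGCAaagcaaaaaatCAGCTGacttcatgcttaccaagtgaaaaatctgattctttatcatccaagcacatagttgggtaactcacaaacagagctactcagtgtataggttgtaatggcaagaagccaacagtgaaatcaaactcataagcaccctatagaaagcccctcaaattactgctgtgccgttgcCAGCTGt
ACTC1: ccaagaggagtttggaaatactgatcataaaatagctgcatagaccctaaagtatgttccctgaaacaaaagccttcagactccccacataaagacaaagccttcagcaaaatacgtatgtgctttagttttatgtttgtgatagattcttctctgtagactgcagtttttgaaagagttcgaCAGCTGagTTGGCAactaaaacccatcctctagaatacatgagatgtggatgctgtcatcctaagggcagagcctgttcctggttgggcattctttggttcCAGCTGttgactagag
COL9A1: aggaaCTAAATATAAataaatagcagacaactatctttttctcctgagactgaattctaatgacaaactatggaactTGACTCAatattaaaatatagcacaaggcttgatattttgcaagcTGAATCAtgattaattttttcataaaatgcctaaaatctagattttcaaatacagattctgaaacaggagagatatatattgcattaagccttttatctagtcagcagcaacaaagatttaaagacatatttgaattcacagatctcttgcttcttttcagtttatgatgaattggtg
DCN: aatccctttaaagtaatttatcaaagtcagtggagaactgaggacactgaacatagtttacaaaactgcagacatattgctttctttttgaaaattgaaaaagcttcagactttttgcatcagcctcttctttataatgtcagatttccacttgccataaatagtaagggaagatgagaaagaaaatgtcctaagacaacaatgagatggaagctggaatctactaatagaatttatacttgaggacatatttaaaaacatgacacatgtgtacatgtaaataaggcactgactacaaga
WWTR1: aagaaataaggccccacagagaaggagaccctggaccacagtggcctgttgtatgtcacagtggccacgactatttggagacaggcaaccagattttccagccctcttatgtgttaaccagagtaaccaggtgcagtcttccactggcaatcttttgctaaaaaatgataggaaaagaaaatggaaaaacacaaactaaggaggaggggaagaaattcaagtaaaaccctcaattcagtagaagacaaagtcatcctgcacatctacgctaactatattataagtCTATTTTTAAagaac
BMP2: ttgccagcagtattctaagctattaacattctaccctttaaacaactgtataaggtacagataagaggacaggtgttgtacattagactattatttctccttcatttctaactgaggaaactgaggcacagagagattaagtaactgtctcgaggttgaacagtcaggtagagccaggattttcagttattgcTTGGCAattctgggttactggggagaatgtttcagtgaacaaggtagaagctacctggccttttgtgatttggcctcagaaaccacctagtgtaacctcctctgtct
DIRC1: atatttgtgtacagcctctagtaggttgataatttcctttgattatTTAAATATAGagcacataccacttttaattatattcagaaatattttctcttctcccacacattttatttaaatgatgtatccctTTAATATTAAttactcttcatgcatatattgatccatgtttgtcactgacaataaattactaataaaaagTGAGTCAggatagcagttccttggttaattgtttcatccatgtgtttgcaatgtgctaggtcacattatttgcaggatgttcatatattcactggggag
The SOX6 and ACTC1 sequences hold 2 MYOD and MYOG E-boxes each. The COL9A1 sequence holds 2 AP-1 matches and 1 MEF2 match, and the DIRC1 sequence 1 AP-1 match and 2 MEF2 matches. The DCN sequence holds none of the 5 motifs, which says only that these letters are not in this window.

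The gained regions lay mostly in introns and between genes. Of the 8826 regions, 4213 (47.7%) lay in introns, 3790 (42.9%) between genes, 564 (6.39%) overlapped an exon and 149 (1.69%) a promoter, taken as the 2 kb upstream of a start site. A further 74 regions overlapped a 3′ UTR and 36 a 5′ UTR. Introns and intergenic sequence together held 90.7% of them (95% exact binomial interval 90% to 91.3%, which covers counting error only). The same share was 66.8% in the 78533 regions with a peak of all 6 libraries, 86.6% in the 26957 regions with a peak of all E18 and E21 libraries and none at E28, and 82.9% in all merged regions. The exon share was 26.0% in the regions of all 6 libraries. The gained regions had a median width of 700 bp (quartiles 545 and 937.75 bp), against 1366 bp for regions of all 6 libraries and 732 bp for regions lost after E21, and a wider region overlaps an exon or promoter more easily.

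**Figure D1:**
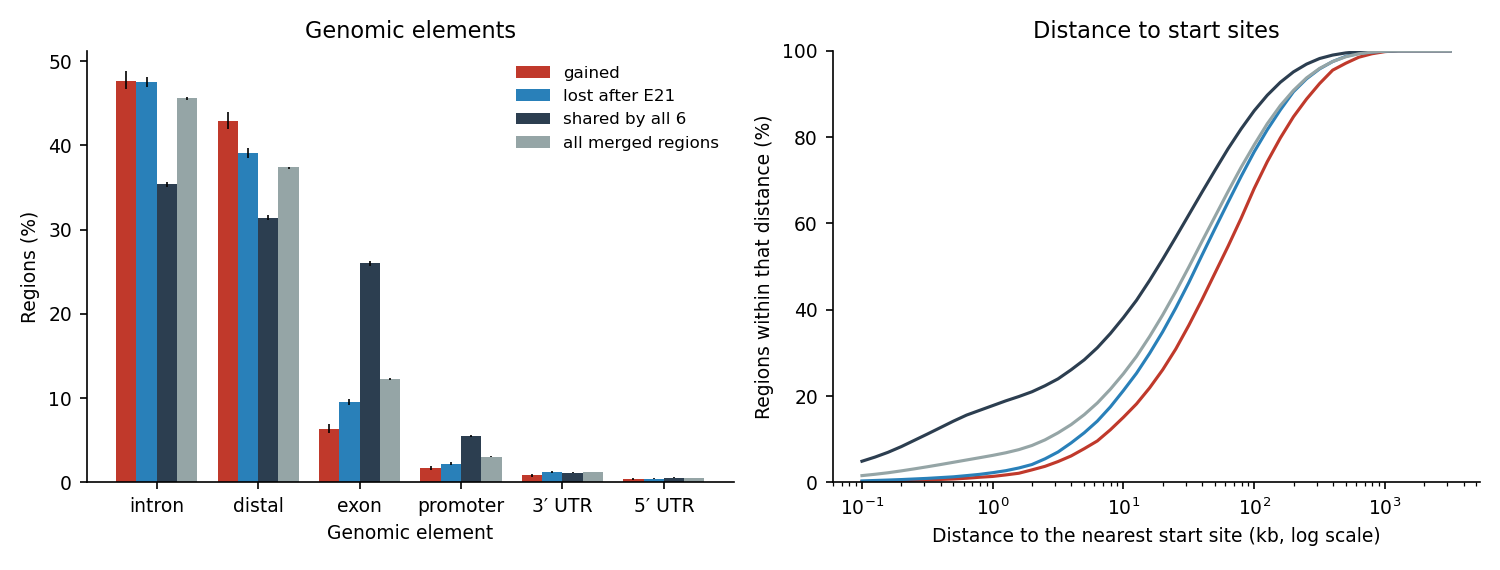
Left, share of regions (%) by genomic element, with exact binomial 95% intervals, for the gained regions, the regions lost after E21, the regions shared by all 6 libraries and all merged regions. Right, share of regions (%) within a given distance (kb, log scale) of the nearest transcript start. The gained regions have the highest intergenic share and the curve farthest to the right, with a median of 53.1 kb. Their intron share of 47.7% is close to the 47.5% of the regions lost after E21.

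The median distance from a gained region to the nearest transcript start was 53.1 kb (quartiles 18.8 and 129 kb). It was 18.4 kb in the regions of all 6 libraries, 36.4 kb in the regions lost after E21 and 31.8 kb in all merged regions. Of the gained regions, 1.39% lay within 1 kb of a start and 15.1% within 10 kb. Among the regions of all 6 libraries, 17.8% lay within 1 kb. The nearest start site is a description of position and does not name the gene that a region acts on.

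Membership rests on the absence of a called peak at E18. The median distance to the nearest E18 peak was 3423 bp, 139 regions had one closer than 250 bp, and 1633 had none within 10 kb. The members closest to the limit were an intron of LOC102168063 (chr16:35216149-35217308) and an intron of COL9A1 (chr1:50470218-50471136), each 4 bp from an E18 peak. Just outside it, an intron region nearest to LOC102158497 (chr10:27316532-27318739) and an intron of CSPG5 (chr13:30400354-30401426) shared 1 base with an E18 peak and did not qualify. Of the 18965 regions with peaks of both E21 libraries and no E18 peak, 46.5% had a peak of both E28 libraries, 19.2% of 1 E28 library and 34.3% of neither. A further 4399 regions without an E18 peak had peaks of both E28 libraries and of 1 E21 library, which was E21 DZ for 3934 of them and E21 ZZ for 465.

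The gained regions took a small part of each library, and a larger one at E28. They held 1.27% of the counts of E21 ZZ, 1.85% of E21 DZ, 3.18% of E28 ZZ and 3.59% of E28 DZ. The median count of a gained region was 126 in E21 ZZ, 174 in E21 DZ, 239 in E28 ZZ and 278.5 in E28 DZ. In CPM, which scales the counts of every library to the same total, the medians were 1.15, 1.63, 2.66 and 2.82 in the same order. Both E28 libraries were above both E21 libraries, and E21 ZZ was the lowest. The peaks also covered less of these regions in E21 ZZ (median 419 bp) than in the other libraries (530 to 566.5 bp). Per kilobase covered, the gained regions had 3.12 and 3.43 CPM at E21 and 6.11 and 6.35 CPM at E28. This measure also depends on how much genome the peaks of a library span. All peaks together spanned 102 Mb in E28 ZZ and 108 Mb in E28 DZ. The earlier libraries spanned more, E21 ZZ 147 Mb and E21 DZ 158 Mb. Since CPM has the same total in every library, CPM per kilobase over all peaks was also higher at E28. The part of this in the rise of the gained regions was not tested. Per region, without division by covered length, the regions of all 6 libraries had median CPM of 5.03, 4.81, 4.64 and 4.43. In 112 gained regions a library had a called peak and no count in its kept barcodes.

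**Figure D2:**
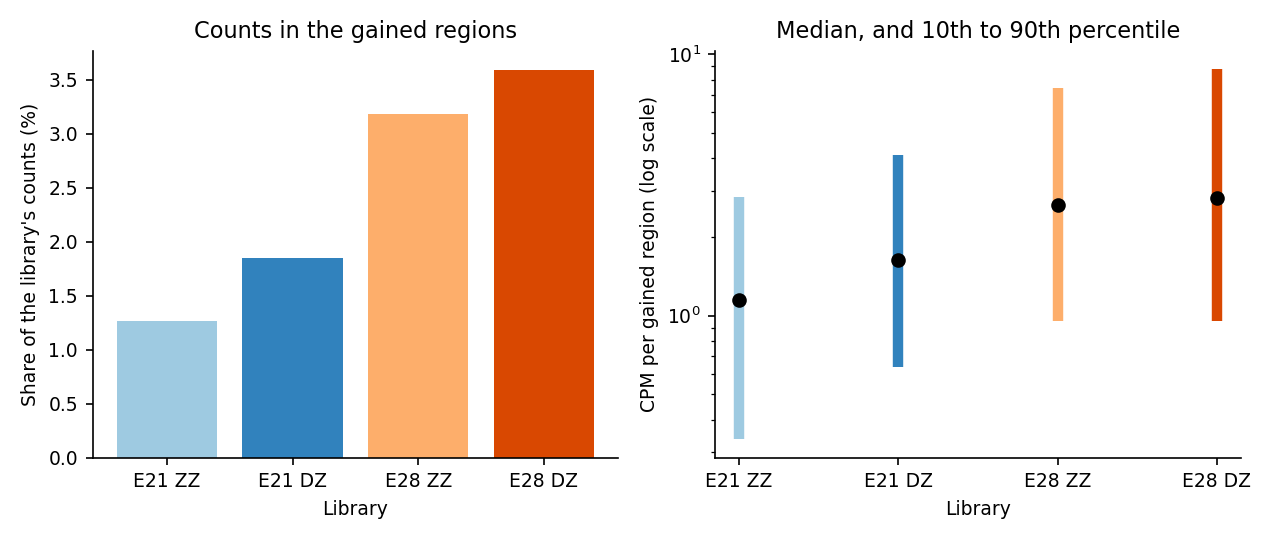
Left, share of each library's counts (%) that fell in the 8826 gained regions. Right, CPM per gained region (log scale), with the median as a point and the 10th to 90th percentile as a bar. The share is 1.27% and 1.85% at E21 and 3.18% and 3.59% at E28.

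To ask which gained regions changed between E21 and E28, the counts of the 4 libraries were fitted across all 91260 regions with a peak of all 4, with stage and breed as terms (edgeR's quasi-likelihood test, Benjamini-Hochberg adjustment over all regions tested). Of 8819 gained regions tested, 890 (10.1%) rose and 4 fell at an adjusted p under 0.05. Over all 91246 regions tested, 2.79% rose and 1.88% fell. The median log2 fold change was 0.99 in the gained regions (quartiles 0.26 and 1.73), and -0.000975 over all regions tested. CPM of both E28 libraries lay above both E21 libraries in 5376 gained regions (61%), against 31.8% of all regions tested, and below both in 476 (5.4%), against 25.7%. The gained regions made up 9.67% of the regions tested and 35% of those that rose. The rule asks for a peak in both E28 libraries, so a region that lost its E28 peak could not be a member. All regions tested share this limit. The gained regions also started low, with median CPM of 1.15 in E21 ZZ and 1.63 in E21 DZ. Regions of all 6 libraries had 5.03 and 4.81. The part of the choice, of this low start and of the differing cell classes in the rises was not tested. Within ZZ the median log2 ratio of E28 to E21 was 0.92 in the gained regions, and within DZ it was 0.66, with a pseudocount of 0.5 CPM. The median number of barcodes with a count in a gained region was 72.5 in E21 ZZ, 89 in E21 DZ and 126 in E28 ZZ, and it was highest in E28 DZ. Fitted on such barcodes in place of counts, the median log2 fold change of the gained regions was 0.88.

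The number of calls rests on few libraries and on the terms of the fit. The smallest adjusted p was 0.0307. With stage as the only term 0 regions were called, gained or other. At an unadjusted p under 0.05 that edgeR fit gave 3305 gained regions, among 21172 of all 91246 regions tested. With both terms edgeR gave 3413, among 22858. The fits without 1 library also dropped the breed term and left 1 pool in a stage, so their calls cannot be set against the main fit. In them the median log2 fold change of the gained regions lay between 0.76 and 1.32. In 829 of the 894 called gained regions the covered lengths of the 4 libraries differed by more than 1.5 times. Most gained regions did so, called or not. Of the 8819 tested, 2275 lay within 1.5 times, as did 42505 of all 91246 regions tested. In the 2275 gained regions whose lengths lay within 1.5 times of each other, a fit on such regions alone called 680 (678 higher), among 5438 of all 42505 such regions (3344 higher), and the median of the gained ones was 0.61. The fit on all regions called 65 of these 2275, all higher, a share near the 2.79% that rose over all regions tested.

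**Figure D3:**
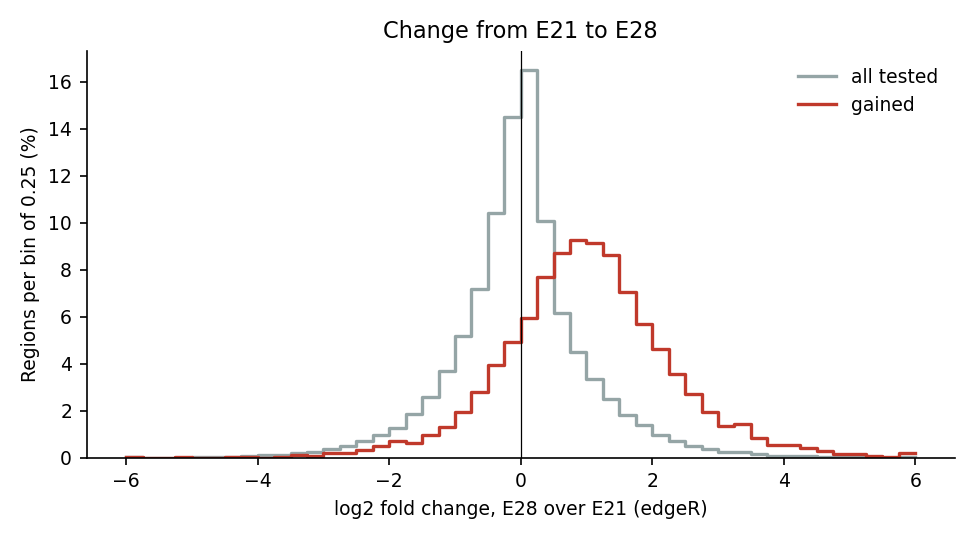
Distribution of the edgeR log2 fold change of E28 over E21 in the 8819 gained regions tested and in all 91246 regions tested, as the share of regions (%) per bin of 0.25, with values beyond the axis in the outer bins. The gained regions centre near 1 and all regions near 0.

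The 5 gained regions with the highest level were read first. The highest was an intron of MCPH1 (chr15:37514147-37516850), a gene of chromosome condensation, with 10.7 CPM in E21 ZZ, 20.4 in E21 DZ, 31.5 in E28 ZZ and 32.5 in E28 DZ. Its E28 values were above its E21 values, with a log2 fold change of 1.08 ± 0.24 (SE) and an adjusted p of 0.0567 in edgeR. A region 77.1 kb downstream of the TM2D1 start (chr6:150691540-150693268) had 11.8, 15.6, 29.2 and 30.2 CPM in the same order of libraries. It rose by 1.10 ± 0.18 (edgeR adjusted p = 0.0359), and its covered lengths were close, between 1598 and 1721 bp. A region over an exon of the noncoding gene LOC110256735 (chr14:56186130-56188083) had 8.05, 9.88, 26.7 and 41.8 CPM and rose by 1.87 ± 0.19 (edgeR adjusted p = 0.0307). Its level was highest in the myogenic-like cells described below. An intron of LOC106507125 (chr7:10517814-10519888) had 6.87, 14, 33.0 and 28.5 CPM and rose by 1.61 ± 0.31 (edgeR adjusted p = 0.0444). A region over an exon of USP24, a deubiquitinase (chr6:157256555-157259990), had 11.4, 22.2, 30.4 and 18.1 CPM. There the stages overlapped, and the log2 difference of 0.52 did not pass the test (edgeR adjusted p = 0.458).

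The 6 largest rises among the 65 called regions with covered lengths within 1.5 times were read next. The largest lay over an exon, 2.37 kb upstream of the LOC110255519 start (chr9:120740990-120742896), with 2.77 and 5.06 CPM at E21 and 22.2 and 25.7 CPM at E28. It rose by 2.64 ± 0.27 on the log2 scale (edgeR adjusted p = 0.0307). An intergenic region 12.4 kb upstream of DIRC1 (chr15:93425571-93427146), whose sequence is printed above, had 2.99 and 4 CPM at E21 and 14.7 and 24.1 CPM at E28. It rose by 2.41 ± 0.27 (edgeR adjusted p = 0.0307). The other 4 were an intergenic region 513 kb from LOC110262298, introns of LOC102161179 and LOC102158243, and a region over an exon in MGMT, which encodes a DNA repair enzyme. They rose by 2.19 to 2.37. In each of the 6, both E28 libraries were above both E21 libraries, as in 61% of all gained regions tested. These 6 were chosen for their rise.

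The 4 falls were named after their values were seen, since none passed the limit on covered length. They were an intron of CCBE1, needed for lymphatic growth (chr1:161408173-161409087), a region over an exon of LOC102164639 (chr15:6176975-6177985), an intron of EML1, a microtubule-binding protein (chr7:120740224-120741336), and an intergenic region near LOC106510102 (chr4:82396523-82397864). The CCBE1 region had 254 and 140 counts at E21 and 1 and 5 at E28. Its peaks covered 897 and 628 bp at E21 and 10 and 41 bp at E28, so at E28 the merged region was hardly covered by a peak. The LOC102164639 and EML1 regions were the same in kind, with 17 to 41 bp covered at E28. The LOC106510102 region kept 139 and 266 bp and had 3.43 and 4.22 CPM at E21 and 0.301 and 0.801 CPM at E28 (log2 fold change -2.97, edgeR adjusted p = 0.0430). With covered length as an offset it was -0.27 (edgeR adjusted p = 0.521). Other limits on barcodes also ended this call (edgeR adjusted p = 0.0501 and 0.0504), though the log2 fold change was -2.77 with each. The offset ended the CCBE1 and EML1 calls too (edgeR adjusted p = 0.299 and 0.915), and the LOC102164639 call held (-1.45, edgeR adjusted p = 0.0201).

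Near the regulators of muscle, 14 of 29 listed genes were the nearest start of at least 1 gained region, 32 regions in all. Of these 32, 5 (15.6%) rose and 0 fell, against 10.1% that rose over all gained regions tested, and their median log2 fold change was 1.17, against 0.99. Another 201 regions near the same genes that were not gained had a median of -0.01, with 3 rises and 5 falls. EYA4, a transcriptional coactivator in muscle progenitors, had 6 gained regions, SOX6, a repressor of slow-fibre genes, had 5, and MEF2C, MSC and KLF5 had 3 each. The 5 that rose lay near SOX6 (2), EYA2, EYA4 and KLF5. MYOD1 and PAX3 had 2 each, and MYF5, MYOG and PAX7 had 1 each.

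Both SOX6 regions with the highest levels rose. The intron printed above (chr2:42580884-42582032, 28.8 kb from a start) had 3.24, 6.2, 13.7 and 19.4 CPM in ZZ and DZ at E21 and in ZZ and DZ at E28 and rose by 1.83 ± 0.28 (edgeR adjusted p = 0.0333). The other (chr2:42721940-42724029) had 0.827, 1.73, 6.39 and 17.2 CPM and rose by 3.10 ± 0.36 (edgeR adjusted p = 0.0307), while its covered length went from 313 bp in E21 ZZ to 2090 bp in E28 DZ. An intergenic region 170 kb from KLF5 (chr11:45539180-45540210), a zinc-finger factor of muscle differentiation, had 1.53, 2.21, 9.80 and 6.63 CPM. It rose by 2.10 ± 0.43, close to the limit (edgeR adjusted p = 0.0498). The MYF5 region (chr5:100737624-100738738, 17.4 kb from the start of this first myogenic factor) was different: it had 3.53, 6.24, 5.21 and 4.55 CPM, so the stages overlapped (log2 difference 0.02, edgeR adjusted p = 0.984).

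Near the genes of the contractile apparatus and its excitation, 7 of 35 listed genes had 10 gained regions. None passed the test in either direction, and their log2 differences lay between 0.84 and 3.97, with a median of 1.77. Over all gained regions tested 10.1% rose, and of 106 other regions near these genes 5 rose and 1 fell. CHRNA1, the acetylcholine receptor subunit at the muscle end plate, had 3 of them and ACTC1, the cardiac alpha-actin that embryonic skeletal muscle also makes, had 2. A region over an exon of CHRNA1 (chr15:80685013-80685935) had 3.16 and 4.08 CPM at E21 and 7.98 and 16.2 CPM at E28. The stages did not overlap, with a log2 difference of 1.63 ± 0.34 (edgeR adjusted p = 0.0508). The intergenic region 7.14 kb upstream of ACTC1 (chr1:136273480-136274476) had 1.55, 1.84, 4.59 and 9.23 CPM, with a difference of 1.92 ± 0.41 (edgeR adjusted p = 0.0552). An intron of MYOM1, a component of the M-band (chr6:103491759-103492566), had 1.04, 1.08, 3.28 and 5.33 CPM and a difference of 1.95 ± 0.46 (edgeR adjusted p = 0.0645). The region over an exon nearest to TNNT3, fast troponin T (chr2:1316317-1317718), had 4.04, 6.07, 16.9 and 6.40 CPM, and its high value in E28 ZZ stood alone among the 4.

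**Figure D4:**
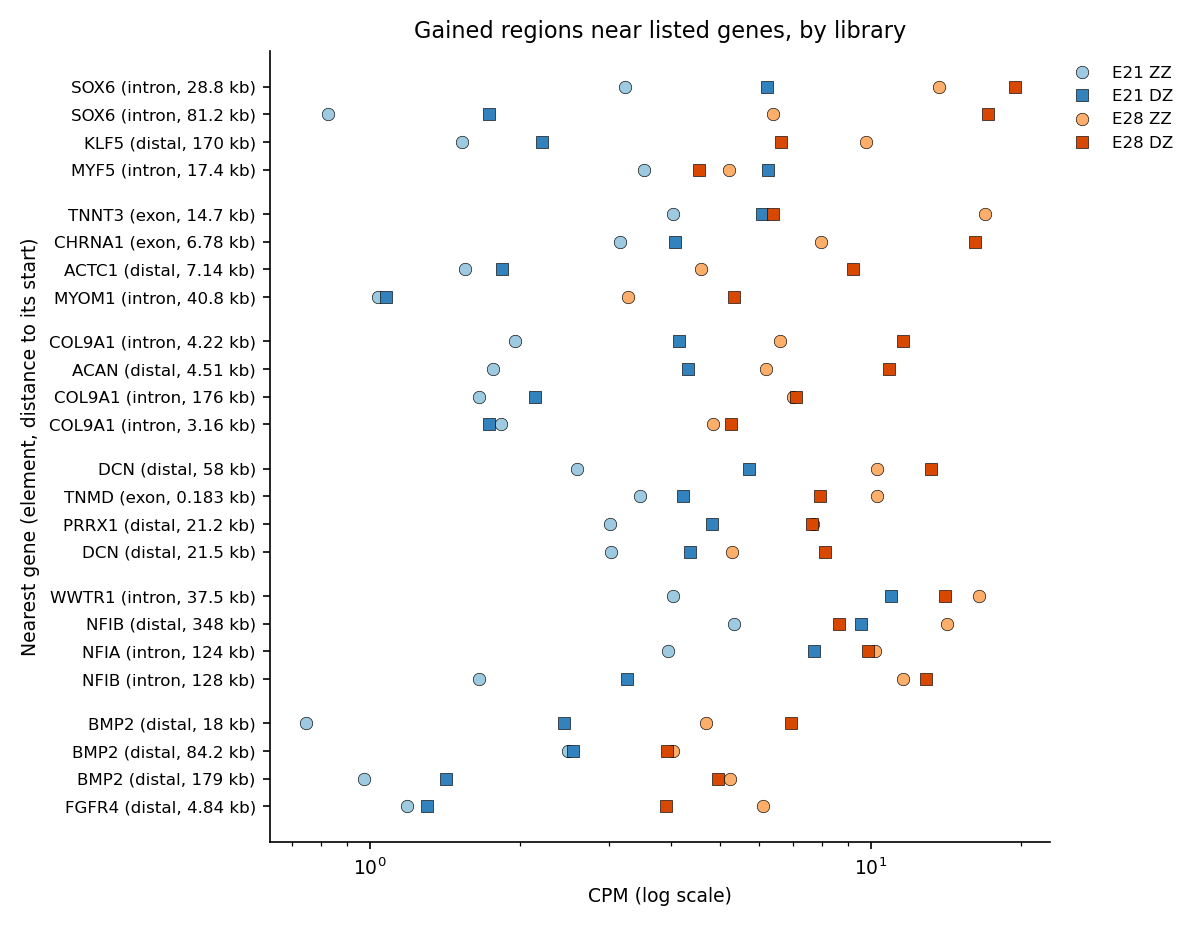
CPM (log scale) in each of the 4 libraries of the gained regions with the highest level near listed genes, at most 4 per list, with blue for E21, orange for E28, circles for ZZ and squares for DZ. From the top the lists are muscle regulators, contractile genes, cartilage genes, fibroblast genes, NFI to AP-1 factors and signalling genes; the MYF5 region is among those where the stages overlap.

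Near the sclerotome and cartilage genes there were 18 gained regions at 8 of 16 listed genes. Of these, 1 (5.56%) rose and 0 fell, with a median of 1.11, against 10.1% that rose over all gained regions tested. Of 131 other regions near these genes, 3 rose and 6 fell. COL9A1, a chain of cartilage collagen, was nearest to 5. One in an intron (chr1:50296985-50297945) had 1.65, 2.14, 7.01 and 7.09 CPM and rose by 1.87 ± 0.38 (edgeR adjusted p = 0.0489). This region lies inside COL19A1, 176 kb from the COL9A1 start, and its covered lengths were 762 to 932 bp. The region printed above (chr1:50477318-50478803) had 1.95, 4.14, 6.61 and 11.6 CPM (log2 difference 1.59, edgeR adjusted p = 0.0538). A region 4.51 kb upstream of ACAN, the main proteoglycan of cartilage (chr7:54444913-54445723), had 1.76, 4.32, 6.19 and 10.9 CPM (1.54, edgeR adjusted p = 0.0615). In all 3 the E28 values were above the E21 values, as in 61% of all gained regions tested. Others of the list went the other way. The log2 difference was -1.01 in the region nearest to SOX9 and -2.13 in that nearest to CNMD, and the lowest was -2.32.

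Near fibroblast and mesenchyme genes there were 27 gained regions at 10 of 23 listed genes, of which 3 rose and 0 fell (median 0.97). Over all gained regions tested 10.1% rose, and of 179 other regions near these genes 11 rose. DCN, a small proteoglycan of connective tissue, was nearest to 7 and FN1, which encodes fibronectin, to 4. The highest lay 58 kb upstream of DCN (chr5:91619802-91621376), with 2.60, 5.72, 10.3 and 13.2 CPM (1.56 ± 0.34, edgeR adjusted p = 0.0565). A region that overlaps an exon, with its centre 0.183 kb upstream of the start of TNMD, a tendon gene (chrX:82268763-82269517), had 3.47, 4.22, 10.3 and 7.92 CPM (1.2 ± 0.35, edgeR adjusted p = 0.0990). An intergenic region 21.2 kb upstream of PRRX1, a factor of limb and trunk mesenchyme (chr4:80523429-80524273), had 3.02, 4.83, 7.68 and 7.63 CPM (0.97 ± 0.36, edgeR adjusted p = 0.163). None of these 3 passed the test. Other members went down: the 2 regions nearest to LUM had a median log2 difference of -1.18, and the lowest of the list was -2.04.

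The list of NFI, TEAD, FOXP and AP-1 factors had 15 gained regions at 6 of 20 genes, of which 1 (6.67%) rose, against 10.1% of all gained regions tested. NFIA was nearest to 4 and NFIB to 3; both encode nuclear factor I proteins. The intron of NFIB that rose (chr1:208312366-208313544) had 1.65, 3.27, 11.6 and 12.9 CPM (2.36 ± 0.37, edgeR adjusted p = 0.0333), and lay 8 bp from an E18 peak. The highest region of the list was the printed intron of WWTR1, the TEAD coactivator TAZ (chr13:89851048-89853007). It had 4.04, 11, 16.5 and 14.1 CPM, and E21 ZZ alone was far below the rest (1.16 ± 0.43, edgeR adjusted p = 0.163).

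Signalling genes had 38 gained regions at 20 of 32 genes, with a median of 1.21 over the 37 tested. Of these, 1 (2.7%) rose, at ID2, an inhibitor of myogenic E-box factors, and 0 fell, against 10.1% that rose over all gained regions tested. BMP2, FGF10 and RARB, which act in the BMP, FGF and retinoic acid pathways, were nearest to 4 each. The 3 regions nearest to NOG had a median log2 difference of -0.256, and the lowest of the list was -1.97. The highest BMP2 region lay 18 kb upstream (chr17:15731563-15733348), with 0.746, 2.44, 4.70 and 6.94 CPM (2.04 ± 0.46, edgeR adjusted p = 0.0603). A region 4.84 kb upstream of FGFR4, the FGF receptor of embryonic muscle (chr2:80858333-80858928), had 1.19, 1.30, 6.11 and 3.90 CPM (1.94 ± 0.44, edgeR adjusted p = 0.0616).

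The remaining lists are of other cell types and HOX genes. Endothelial genes had 8, of which 4 were nearest to EMCN, and neural progenitor and neuron genes 13, of which 5 were nearest to SOX1. Gained regions made up 8.33% and 10.5% of the tested regions near these genes, against 9.67% over all regions tested. The share was 13.7% for muscle regulators, 13.1% for fibroblast genes, 12.1% for cartilage genes, 9.76% for signalling genes, 8.62% for contractile genes and 7.69% for the NFI to AP-1 factors. Of the 8 endothelial regions 1 rose, with a median of 0.55 and a lowest value of -1.02 near FLT1, and of the 13 neural ones 2 rose, with a median of 0.91 and a lowest value of -1.16 near SOX2, against 10.1% that rose over all gained regions tested. The EMCN exon region (chr8:120217972-120219462) had 1.05, 2.57, 9.10 and 13.9 CPM and rose by 2.73 ± 0.37 (edgeR adjusted p = 0.0307). Among the cell classes its level was highest in mesenchyme-like cells, at 8.87 CPM. A region 58.5 kb upstream of ISL1 (chr16:30903706-30905355), a homeobox gene of motor neurons and other lineages, had 1.36, 0.666, 13.4 and 17.9 CPM and rose by 3.97 ± 0.47 (edgeR adjusted p = 0.0307). The ISL1 region had 17.5 CPM in the unnamed cluster described below, its highest level, and 1.34 in neuron-like cells. An intron of TP63, which encodes an epithelial factor (chr13:127234348-127235216), was the one gained region near epithelial genes, with 0.609, 0.731, 4.26 and 9.98 CPM and a rise of 3.26 ± 0.47 (edgeR adjusted p = 0.0320). The HOX genes, the neural crest and glia genes and the blood and immune genes had 0 gained regions, beside 43, 22 and 11 other regions tested near them.

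In all, 4880 genes were the nearest start of a gained region, 3029 of them for 1 region and 270 for 5 or more. The genes with the most were the noncoding LOC110255978 (19 regions), TENM3 (18), ROBO1 (16), FSTL5 (15), FZD1 (14), RBFOX1, OLFM4 and PTPRD (13 each) and the noncoding LOC102168091 (12). The tRNA name TRNAE-UUC, which 53 annotated genes share, stood for 19 regions on 8 chromosomes. TENM3, ROBO1 and PTPRD encode adhesion or guidance receptors of neurons and other cells, and all 18 TENM3 regions, 12 of 16 at ROBO1 and 12 of 13 at PTPRD were intronic. The LOC110255978 regions were all intergenic, over 0.724 Mb of chromosome 12 (chr12:8963948-9688005). Summed over its 18 regions, TENM3 had 31.3, 42.8, 82.1 and 96.1 CPM in ZZ and DZ at E21 and in ZZ and DZ at E28, and 3 of the 18 rose, against 10.1% of all gained regions tested. FZD1, a Wnt receptor, had 24.3, 40.7, 50.2 and 43.6 CPM over 14 regions, of which 0 passed the test, against the same 10.1%. FZD1 itself spans 9.49 kb and its regions 0.361 Mb, and 13 of them lie in introns; the one with the highest level lies in the neighbouring gene MTERF1. Long genes and long intergenic stretches have more room for regions: TENM3 spans 2580 kb. Chromosome 1 held 11.4% of the gained regions and 9.97% of those of all 6 libraries, and chromosome 12 held 2.48% and 4.76%. Of the gained regions, 12.9% had another within 10 kb, and the median distance to the next was 63.7 kb.

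Promoters were rare among the gained regions, and 16 of 148 tested (10.8%) rose, against 10.1% of all gained regions tested. The highest (chr16:21772818-21774372) lay 2.33 kb from the LOC106508150 start, measured from the centre, with 2.05 and 3.74 CPM at E21 and 28.4 and 28.9 CPM at E28. It rose by 3.33 ± 0.29 (edgeR adjusted p = 0.0307). Others were at SMG6, a nonsense-mediated decay endonuclease, which rose by 1.65 ± 0.26 (edgeR adjusted p = 0.0338), and DDR2, a collagen receptor of mesenchymal cells, which rose by 2.31 ± 0.45 (edgeR adjusted p = 0.0452). The DDR2 promoter (chr4:87913434-87915206) had 1.28, 6.66, 11.6 and 19.4 CPM, and its covered length went from 458 bp in E21 ZZ to 1773 bp in E28 DZ.

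Between the breeds no gained region was called. Of 8819 tested, 0 passed in DZ against ZZ (edgeR, smallest adjusted p = 0.875), as over all regions tested (0%). An unadjusted p under 0.05 was found for 820 (9.3%), against 5.38% of all regions, and DESeq2 called 54 of 8826, among 235 of all 91260 regions. The median log2 difference was 0.38, higher in DZ, against 0.02 over all regions tested. At E21 the median log2 ratio of DZ to ZZ was 0.35 and at E28 0.13. Fits without 1 library had breed as their only term, so stage was not held equal between the breeds. In them the median was -0.10 without E21 ZZ and -0.19 without E28 DZ, which does not measure the breed difference alone. E21 ZZ was also the library whose peaks covered the least of these regions. With covered length as an offset the median was 0.11, with covered lengths within 1.5 times 0.16, and with both 0.05.

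The sequence of the gained regions was richer in A and T. In 300 bp at the centre, the median GC content was 41.3%, against 51.7% in the regions of all 6 libraries, 48.7% in those lost after E21 and 47.7% in all merged regions. The median ratio of observed to expected CpG was 0.213, against 0.337 in the regions of all 6 libraries. Of 18 motifs searched on both strands, the MYOD and MYOG E-box (CAGCTG) was in 28.5% of the gained regions, against 23.8% of all merged regions and 24.0% of those of all 6 libraries. The TWIST1 E-box (CATATG) was in 12%, against 7.46% and 5.46%. MEF2 was in 6.91%, against 3.65% and 3.32%. The NFI site was in 20.2%, against 16.5% and 14.8%, and AP-1 in 13.5%, against 12.7% and 9.31%. The STAT motif (TTCNNNGAA) was in 14.2%, against 10.3% and 9.13%.

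Some motifs were scarcer and others close to all merged regions. The SP and KLF motif (GGGCGG) was in 3.93% of the gained regions, against 13.2% of all merged regions and 23.7% of those of all 6 libraries. CTCF was in 0.125%, that is 11 regions, against 1.53% and 3.59%. The nuclear receptor site (AGGTCA) was in 13.5%, against 21.7% and 16.8%. Among introns and intergenic regions alone, CAGCTG was in 27.6% of the gained regions and 25.5% of those of all 6 libraries, MEF2 in 7% and 4.07%, and CTCF in 0.125% and 4.24%. With the window at the sequence called in most libraries, CAGCTG was in 30.2% and 29.3% of these introns and intergenic regions. TEAD (GGAATG) was in 22.5% of the gained regions, 21.2% of all merged regions and 18.3% of those of all 6 libraries. In the same order, RUNX (TGTGGT) was in 19.7%, 19.4% and 17.0%. SOX (ACAATG) was in 14.6%, 14.2% and 11.4%, and MEIS (TGACAG) in 22.6%, 22.7% and 19.5%. The motif of GATA factors, with the letters AGATAA, was in 14.6%, 15.2% and 11.4%, and the ZEB and SNAI E-box (CAGGTG) in 19.3%, 21.5% and 23.2%. The homeobox letters (TAATTA) were in 7.33%, 7.03% and 5.56%, FOX (TGTTTAC) in 3.41%, 4.44% and 3.65%, and ETS (CCGGAAGT) in 0.193%, 0.475% and 1.01%. Base composition moved with these shares, and its part in them was not tested. The 3 E-box motifs differ in their central letters, so 1 match counts for 1 of them.

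The gained regions were next set beside cell classes. The kept barcodes of the 4 libraries were clustered on 73617 regions with a peak of all 6 libraries, leaving out 100 kb around every marker and listed gene, so no gained region entered the clustering. Of 7 clusters, 1 was myogenic-like (5007 barcodes), with 12 of 12 measured markers raised, PAX7, MYF5, MYOD1 and MYOG among them. The largest (26426 barcodes) was fibroblast and mesenchyme-like, with PDGFRA, COL1A1, PRRX1 and DCN among 8 of 11 markers raised, and of its 10 leading markers 6 were of this list, 3 of sclerotome and 1 of endothelium. Others were neuron-like (1814), neural crest and glia-like (1192), endothelial-like (645) and blood and immune-like (274), and 1 cluster of 2135 barcodes had no name. No doublet caller was run.

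The share of counts that fell in the gained regions was highest in the unnamed cluster, the myogenic-like class and the mesenchyme-like class. As CPM of the class (all counts of that class in the library as the total), they were 18880, 23610, 31070 and 31950 in the myogenic-like class in ZZ and DZ at E21 and in ZZ and DZ at E28 (mean 26400 ± 6240, SD, n = 4 libraries). In the mesenchyme-like class they were 12750, 19220, 33890 and 39250 (mean 26300 ± 12400). In the unnamed cluster they were 15230, 19880, 35780 and 43290 (mean 28500 ± 13200), and the ranges of all 3 overlapped. Of the gained regions, 2626 (29.8%) had their highest level in the mesenchyme-like class, 2394 (27.1%) in the unnamed cluster and 2292 (26.0%) in the myogenic-like class. Such shares were not computed for other regions. The endothelial-like class had 4440 to 7759 and the blood and immune-like class 4861 to 6916, and neither overlapped the myogenic-like range. The neuron-like class had 7903 and 9181 at E21 and 17360 and 16660 at E28, from 66 and 204 barcodes at E28. In each of the 6 named classes and in the unnamed cluster, both E28 libraries were above both E21 libraries. At E21 the myogenic-like class was above the mesenchyme-like class in both breeds, and at E28 it was below it in both. This order rests on the clustering, and the part of neural barcodes in the mesenchyme-like values was not tested. At resolution 0.6 the mesenchyme-like cluster was smaller, with 5492 barcodes, and clusters of 7868, 5896 and 2903 barcodes had no name. The mesenchyme-like cluster then had 18860 in E21 ZZ and 22660 in E21 DZ, against 18840 and 23480 in the myogenic-like class. A neural progenitor-like class stood apart, with 3131 and 3612 at E21 and 26230 and 35290 at E28, where it had 80 and 69 barcodes. Those barcodes were shallow, with 290341 and 234310 counts in all. At E21 the class had 13973833 counts in 1249 barcodes and 7312695 in 666. Whether its E28 barcodes are neural progenitors was not tested. A sclerotome and cartilage-like class of 3368 barcodes had 15140, 20290, 33970 and 39140. CFI, LOC106505145 and LOC102158750 were among the leading genes of both this class and the unnamed cluster of the main clustering. Peaks were called on all cells of a library together, and the part of this in the low values of small classes was not tested. The highest class of a region was taken from mean CPM over the 4 libraries, with no floor on counts. Small classes held few counts in all, such as 354365 in blood and immune-like cells of E21 ZZ and 620255 in neuron-like cells of E28 ZZ. Levels of single regions there rest on few counts.

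**Figure D5:**
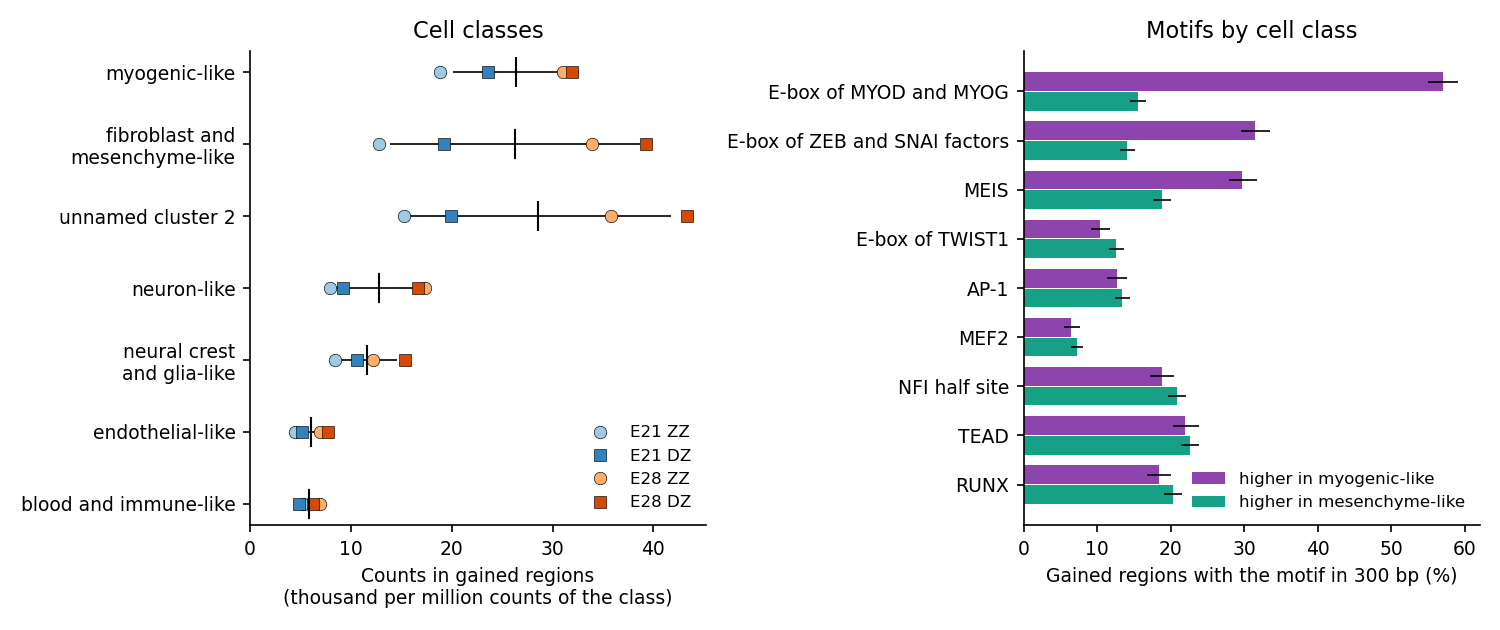
Left, counts in the gained regions as CPM of each cell class, with the axis divided by 1000, with a point per library, the mean as a tick and the SD over the 4 libraries as a line. Right, share of gained regions (%) with a motif in their central 300 bp, with exact binomial 95% intervals, for regions higher in the myogenic-like or in the mesenchyme-like class in all 4 libraries. The MYOD and MYOG E-box is in 57.0% of the first and 15.6% of the second.

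Single regions were divided between the classes. In all 4 libraries, 2260 gained regions (25.6%) had a higher CPM in the myogenic-like class than in the mesenchyme-like class, and 4285 (48.5%) had a lower one. The MYOD and MYOG E-box was in 1289 (57.0%) of the former and in 667 (15.6%) of the latter. Read the other way, 51.3% of the 2513 gained regions with this E-box were higher in the myogenic-like class. The E-box CAGGTG, labelled here by ZEB and SNAI, was in 31.5% of the former and 14.1% of the latter, and MEIS in 29.7% and 18.8%. A motif name is a label, and a match does not tell which factor binds. MEF2 was in 6.5% and 7.19%, and AP-1 in 12.7% and 13.4%. Of the 10 gained regions near contractile genes, 7 were higher in the myogenic-like class in all 4 libraries, as were 16 of the 32 near muscle regulators and 2 of the 27 near fibroblast genes. These lists overlap the markers that named the classes. CHRNA1, NEB, PAX7, MYF5, MYOD1, MYOG and MSC named the myogenic-like class, and PRRX1, DCN, LUM and OSR1 the mesenchyme-like class. Near these genes, a higher level in that class is not independent of its name. The ACTC1 region had a mean of 21.7 CPM in myogenic-like cells and 0.543 in mesenchyme-like cells, and the MYOM1 region 12.4 and 0.499. The CHRNA1 exon region had 31.9 and 2.78 CPM, and the MYF5 region 16.9 and 3.03. Other regions near muscle genes were lower in myogenic-like cells: the TNNT3 region, the highest of the contractile list, had 1.48 and 10.5 CPM, the KLF5 region 2.21 and 6.35, and the printed SOX6 intron 9.43 and 10.3. The FGFR4 region had 0.411 and 4.06 CPM. The MCPH1 intron had 3.41 CPM in myogenic-like cells, 29.9 in mesenchyme-like cells and 46.2 in the unnamed cluster. These are descriptions of cells from the same 4 libraries, and no test is given for them. The mesenchyme-like class may also hold neural barcodes, as given above. The split and its motif shares were not computed for regions that were not gained. They are therefore not shown to be particular to the gained regions.

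The rises were also counted by motif and element. Of the gained regions with CAGCTG, 7.88% rose, against 11% of those without it, and the medians were 1.01 and 0.98. With the NFI site 11.9% rose, against 9.64% without, and with the TWIST1 E-box 7.43%, against 10.5%. The share that rose was 9.10% in introns, 10.5% between genes and 15.6% over exons.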

How the data were processed

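Single-cell ATAC-seq libraries of 6 pools of pig embryos were analysed from the deposited matrices. Per the labels and the study's methods, the authors made them with Cell Ranger ATAC on Sscrofa11.1, which called peaks in each library separately and counted transposase cuts per peak and barcode, and went on in Seurat 3.1.1 and Signac 0.2.2. The deposited values are raw counts, not normalized, and 90.1% to 92.4% of them are even, since both ends of a fragment were counted. Columns of other samples in use: 0.

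Barcodes with 2000 to 30000 counts were kept, and peaks overlapping by at least 1 bp were merged. Counts of each merged region were summed per library. Elements and start sites came from RefSeq (28224 genes, 76349 transcripts), with a promoter as the 2 kb upstream of a start and exons taken before promoters. CPM used the summed counts of each library. E28 against E21 and DZ against ZZ were tested with edgeR 4.0.16 (R 4.3.3; TMM, quasi-likelihood), with stage and breed as terms, over all regions with a peak of all 4 libraries, at an adjusted p under 0.05. With 1 library per stage and breed, p-values measure the spread between 4 pools and their additive fit. The SE of a log2 fold change was worked back from the test. It is the size of the change over the square root of the quasi-likelihood F value, not a separate estimate. The study's regression over cells was not used, since cells are not replicates. Cells were clustered by latent semantic indexing with 50 components, leaving out the first, which followed depth (correlation 0.984 with log depth), and Leiden clustering at resolution 0.3 (leidenalg 0.10.2, scikit-learn 1.9.0, Python 3.11.15). No doublets were called. Intervals cover counting error only. The scripts were tested on simulated data.

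Named regions were the 5 with the highest mean CPM, the 6 largest called rises and falls with covered lengths within 1.5 times, the 10 genes nearest to most regions, up to 4 regions per gene list, the 5 highest promoters and those at the limit of the E18 rule. The regions near 1 listed gene are not reported here. The members, gene lists and motifs were chosen with earlier results of these data known. Alternatives were DESeq2 1.42.0, RLE factors, no count filter, other barcode limits, other windows and annotations, and covered length as an offset. Each library was also left out, with stage or breed as the only term.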

Additional observations from a re-analysis of the deposited data

How the results depend on the processing

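The median log2 fold change of the gained regions between E21 and E28 stayed above 0 under every alternative run, while the number of called regions did not hold. Against 894 calls in edgeR, DESeq2 gave 2269, covered length as an offset 4961, and barcodes with a count in place of counts 1526; calls over all regions went from 4256 to 13291, 25709 and 7368. Stage as the only term gave 0, and leaving out 1 library gave between 0 (without E21 ZZ, and without E21 DZ) and 2400 (without E28 ZZ). A library left out leaves its stage with 1 pool, assumed to vary like the others. The offset also moved the median over all regions tested to 0.328, and the median of the gained regions was then 0.776. For DZ against ZZ, DESeq2 gave 54 calls, the offset 8 and regions with covered lengths within 1.5 times 5, against 0 in edgeR. With 1 library left out breed was the only term, so the breeds also differed in stage. The median then lay between -0.185 (without E28 DZ) and 1.06 (without E28 ZZ), and at -0.0995 without E21 ZZ. With regions covered within 1.5 times, the fit also pools its spread over fewer regions. All 28 named calls were lost with stage as the only term, while the median log2 fold change of the gained regions was then 0.976. Of the 33 named regions that were not called, 17 passed in DESeq2 and 21 with the offset. The cause was not tested.

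The share in introns or between genes was 94.9% by the midpoint alone. By that rule it was 79.8% in the regions of all 6 libraries, 92.8% in those lost after E21 and 89.4% in all merged regions. The intron share alone was then 51.6% in the gained regions and 53.1% in those lost after E21. The median distance to protein-coding starts was 85.9 kb. It was 26.4 kb in the regions of all 6 libraries, 52.8 kb in those lost after E21 and 46.2 kb in all merged regions. The share with CAGCTG was 22.6% in 200 bp and 31.2% in 300 bp at the sequence called in most libraries. It was 17.1% and 27.2% in the regions of all 6 libraries. Named regions that were not called changed direction as follows. MYF5 went to -0.0113 with all deposited barcodes, -0.125 with lengths within 1.5 times, -0.0431 with stage alone, and between -0.403 and 0.468 with 1 library left out (-0.101 without E28 ZZ). With 1 library left out, TRNAE-UUC lay between -0.21 and 0.828 and FZD1 between -0.6 and 0.854 (-0.357 without E21 ZZ). OLFM4 went to -0.127 with lengths within 1.5 times, -0.015 with barcodes with a count and between -0.315 and 0.344 with 1 library left out. Breed as a term compares the stages within each breed. The fits with 1 library left out had stage as their only term and did not do so. Within each breed the named FZD1 region was higher at E28, from 3.51 to 3.97 CPM in ZZ and from 7.87 to 8.61 CPM in DZ. The labels give no other pairing. Depth limits the 609 gained regions with under 10 counts in a library.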
